A study of Mus musculus with 8 samples.

Results

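Neutrophils were picked out of the blood of mice that had received a heart, a liver or a kidney allograft 7 days earlier, 5854 cells in all. The choice was made on raw UMIs (unique molecular identifiers, 1 for each captured RNA molecule). A cell needed at least 3 UMIs over Csf3r, the receptor for granulocyte colony-stimulating factor, Cxcr2, the chemokine receptor that draws neutrophils to tissue, Mmp9, a gelatinase, and Il1r2, a decoy receptor for interleukin 1. It also had to hold 0 UMIs of Csf1r, the receptor for macrophage colony-stimulating factor, at most 1 of the B cell genes Cd79a and Cd79b, and at most 1 of the T cell genes Cd3d, Cd3e, Cd3g and Trac. These 5854 cells stood among 15737 blood cells, and 47541 cells of the whole series, that held 500 UMIs or more and no more than 10% of UMIs from mitochondrial genes. Heart recipients gave 4190 neutrophils of 7772 blood cells (53.9%, 95% interval 52.8 to 55.0), liver recipients 1595 of 6822 (23.4%, 22.4 to 24.4) and kidney recipients 69 of 1143 (6.04%, 4.73 to 7.58). The shares moved with the rule by more than their intervals, from 29.1% to 65.1% in heart, 9.50% to 38.0% in liver and 1.05% to 10.7% in kidney recipients under another UMI minimum, another marker minimum, thinning first or stricter exclusion of other cells. Since the cells were chosen by these genes, the shares and the levels of the rule genes are a description.

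BALB/c organs from mice 8 weeks old were placed in C57Bl6/J recipients of the same age, which received no immunosuppressive drug. The labels give the strain as BALB/c and the sex as male for every library. The recipient type of each blood library was taken from its label and could not be checked. The blood cells, called PBMC (peripheral blood mononuclear cells) in the study, were read by Microwell-seq. This method traps single cells with barcoded beads in agarose wells and captures the 3′ ends of polyadenylated RNA. The study does not describe how the blood cells were prepared, and the part of that step in the shares and levels was not tested. Each recipient type is 1 blood library, and the sources do not say how many of the 2 recipients per organ it holds, so that recipients cannot be told apart and no test between recipient types was possible. The study compared liver allografts, which are tolerated, with heart and kidney allografts, which are rejected. All libraries share the donor strain and the recipient strain, and no library of untransplanted or syngeneic blood was analysed here.

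Neutrophils are short-lived cells that fill their granules in sequence while they mature in the bone marrow. RNA for primary granule proteins comes first, that for secondary granule proteins such as lactoferrin next and that for gelatinase granule proteins last, and the early RNAs have faded when a cell enters the blood. Type I interferon switches on a set of antiviral genes in circulating neutrophils, and mouse neutrophils also express a family of stefin A genes, which encode small inhibitors of cysteine proteases such as the cathepsins.

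The neutrophils held 3486876 UMIs in heart recipients, 1225568 in liver recipients and 46003 in kidney recipients, with medians of 769, 684 and 623 UMIs per cell. Levels are given as CPM, the UMIs of a gene or list per 1e6 UMIs of the neutrophils of a library. Intervals are exact 95% Poisson intervals for levels, binomial intervals for shares and conditional binomial intervals for ratios, and all cover counting error only. In the kidney library 1 UMI was worth so much that a count of 0 was set against a floor of 65.2 CPM (3 UMIs). The exact 95% interval for a count of 0 there reaches 80.2 CPM. A barcode was also present in another library for 874 heart, 339 liver and 15 kidney neutrophils, and 49 barcodes were neutrophils in both heart and liver blood. T cells of the same libraries (at least 3 UMIs of the T cell genes and 0 of the 4 rule genes, Cd79a and Cd79b) served as the background from free RNA, with 65, 69 and 232 cells and medians of 802, 755 and 1066 UMIs. The 0 UMIs of the rule genes leave out doublets with the neutrophils chosen here, so these T cells are no background for doublets.

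The other markers of the cell type were present. The 16 neutrophil markers outside the rule summed to 240432 CPM in heart, 177929 CPM in liver and 246419 CPM in kidney recipients, against 67644, 35122 and 13927 CPM in T cells. S100a8 and S100a9, the subunits of calprotectin, were the most abundant RNAs, with 11.2%, 8.37% and 10.3% of all UMIs for S100a8 and 6.63%, 6.70% and 10.3% for S100a9. Steap4, a metalloreductase, stood at 405 CPM in heart, 305 CPM in liver and 152 CPM in kidney neutrophils. Mpo, the peroxidase of primary granules, had 0 UMIs in all 3 libraries, and the 6 primary granule genes together reached 70.6, 53.0 and 0 CPM. The label neutrophil was therefore kept, but T cells were the only cells set against the members here. Cells with 0 UMIs of the rule genes that met the other conditions also held the 16 markers. Their level was 160935 CPM in heart blood (311 cells), 85801 CPM in liver blood (1281 cells) and 31922 CPM in kidney blood (438 cells). Members with 0 UMIs of Ccr2, Ms4a6c, F13a1, Fn1 and Cd74 numbered 1707 of 4190 in heart, 234 of 1595 in liver and 54 of 69 in kidney blood. The part of monocytes among the members was not tested.

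The rule genes themselves were uneven between recipients. Il1r2 was at 2931 CPM in heart, 778 CPM in liver and 1087 CPM in kidney neutrophils, whereas Csf3r was at 1446, 2485 and 1761 CPM. Cells with exactly 3 UMIs of the rule genes numbered 976, 682 and 29, and the cells with 2 UMIs that met the other conditions numbered 871, 996 and 53. The markers outside the rule were close on either side of the threshold in heart blood, at 223189 CPM with 2 UMIs and 237307 CPM with 3. In liver blood they were at 141657 and 161316 CPM, and in kidney blood at 193984 and 249554 CPM.

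RNA of other blood cells was present in the neutrophils, with monocyte, B cell and erythroid genes highest in liver recipients and T cell and NK cell genes highest in kidney recipients. The monocyte list of 12 genes summed to 13608 CPM in heart, 21476 CPM in liver and 10456 CPM in kidney neutrophils, the B cell list of 10 genes to 2989, 6151 and 870 CPM, and the erythroid list of 8 genes to 206, 12957 and 6108 CPM. The T cell list was at 888, 554 and 1565 CPM and the NK cell list at 1300.0, 1225 and 2804 CPM, the eosinophil and basophil lists were at or below 65.2 CPM, and platelet genes at or below 124 CPM. Csf1r was at 0 by the rule. Doublets were not called, and the part of these cells and of free RNA in the differences below was not tested, except where values without such cells are given.

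**Figure D1:**
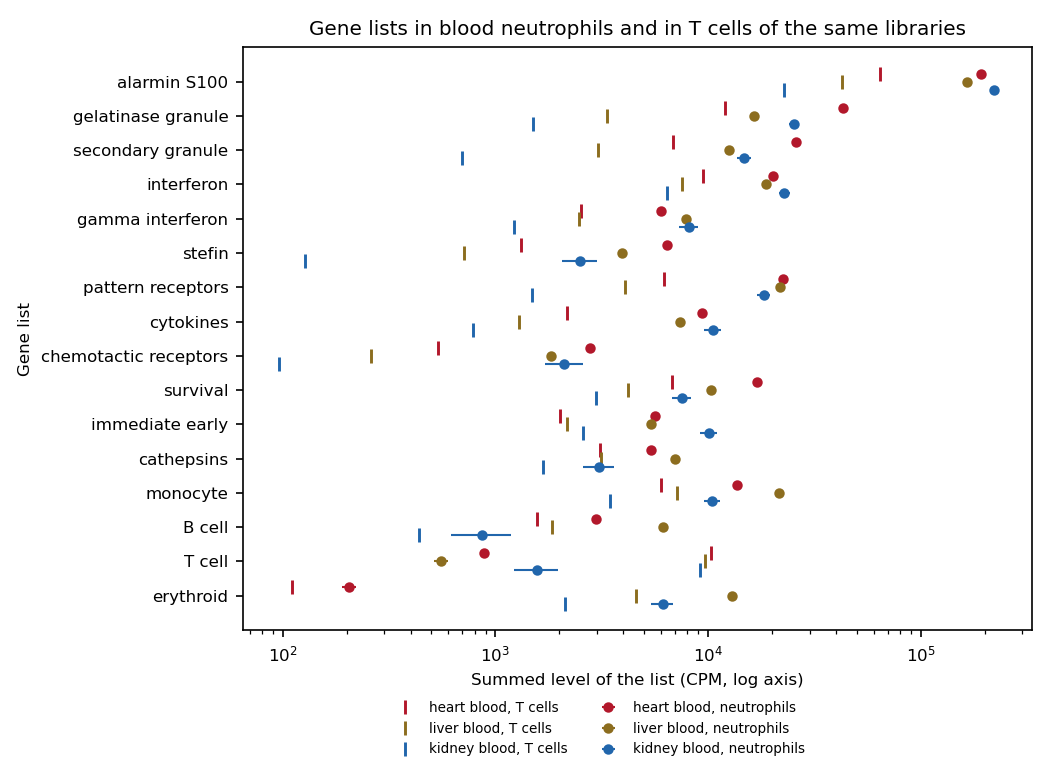
Summed level of 16 gene lists (CPM, log axis) in the blood neutrophils of heart, liver and kidney recipients (points, with exact 95% Poisson intervals) and in T cells of the same libraries (ticks). Neutrophil points lie to the right of the ticks of their library for every list drawn except that of T cell genes.

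Maturity was read first from the granule genes. RNA for secondary granule proteins was highest in heart recipients: the list of 9 genes summed to 25989 CPM (25820.2 to 26159) in heart, 12593 CPM (12395 to 12794) in liver and 14803 CPM (13712 to 15958) in kidney neutrophils. Liver neutrophils were lower than heart neutrophils by a log2 ratio of -1.05 (-1.07 to -1.02), and 7 of the 9 genes were at least 2-fold lower, none higher. Over all 2112 genes with a mean of at least 50 CPM, 3.08% were lower and 8.76% higher by 2-fold or more in the liver than in the heart library, the same genes when the counting interval also had to exclude 1. The median log2 ratio was -1.38 over the 9 genes and 0.12 over all genes. T cells of the same libraries held 6856, 3038 and 695 CPM of the list, so that the list stepped down from heart to liver in T cells as well. Free RNA and any doublets left among these T cells cannot be told apart in that level.

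The single genes of this list moved as follows. Lcn2, the iron-scavenging lipocalin of the secondary granule, was at 6997 CPM in heart, 2631 CPM in liver and 3652 CPM in kidney neutrophils, a log2 ratio of -1.41 (-1.46 to -1.36) for liver over heart. Wfdc21, a small secreted WAP-domain protein, was at 5518, 2117 and 2043 CPM. Hp, haptoglobin, was at 5790.3, 2714 and 2196 CPM. In these 3 genes heart neutrophils stood well above both others, whose levels lay closer to each other.

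Pglyrp1, a peptidoglycan-binding protein of the granule, was at 1958 CPM in heart, 995 CPM in liver and 1739 CPM in kidney neutrophils, and Cd177, a surface glycoprotein of neutrophils, at 118, 56.3 and 87.0 CPM. Chil3, a chitinase-like lectin, departed from the rest of the list, with 4814 CPM in heart, 3903 CPM in liver and 217 CPM (104 to 399.8) in kidney neutrophils. For Chil3 liver was below heart by less than 2-fold (log2 ratio -0.30, -0.35 to -0.26). Kidney neutrophils held 10 UMIs of Chil3 in all, and after thinning 7 lay in the 4 cells richest in Camp, Ltf and Ngp that are described below and 3 in the other 65.

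Gelatinase granule genes followed in part. The 6 genes summed to 42959 CPM in heart, 16460.1 CPM in liver and 25390 CPM in kidney neutrophils, a log2 ratio of -1.38 (-1.40 to -1.36) for liver over heart. Retnlg, a resistin-like secreted protein, made up most of it, at 34558, 11419 and 18803 CPM. Mmp8, the neutrophil collagenase, was at 3618, 1251 and 2391 CPM. Liver neutrophils were the lowest for both genes. Those 2 of the 5 tested members were at least 2-fold lower than in heart, none higher, against 3.08% and 8.76% of all genes. T cells held 12057, 3358 and 1502 CPM of the 6 genes, so that this list also stepped down from heart to liver in T cells. Slpi, an inhibitor of neutrophil elastase, was at 4319, 3411 and 3565 CPM. Outside this list, Ly6g, the surface protein used to stain mouse neutrophils, was at 436, 152 and 499.97 CPM, and Asprv1, an aspartic protease, at 2362, 595 and 717 CPM.

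After every neutrophil was thinned to 500 UMIs, the secondary granule list had a median of 12 UMIs per cell in heart, 6 in liver and 4 in kidney recipients. At least 10 UMIs were found in 77.1% (75.8 to 78.4) of heart, 12.5% (10.9 to 14.2) of liver and 15.9% (8.24 to 26.7) of kidney neutrophils, and in 4.62%, 0% and 0% of T cells. With 0 of 69 liver and 0 of 232 kidney T cells, shares of up to 5.21% and 1.58% are allowed. The cut at 10 UMIs fell within a continuous range, with 384 heart cells at 10 and 329 at 9 UMIs. In heart and liver neutrophils the variance over cells was 1.75 and 1.70 times the mean, in kidney neutrophils 19.4 times.

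**Figure D2:**
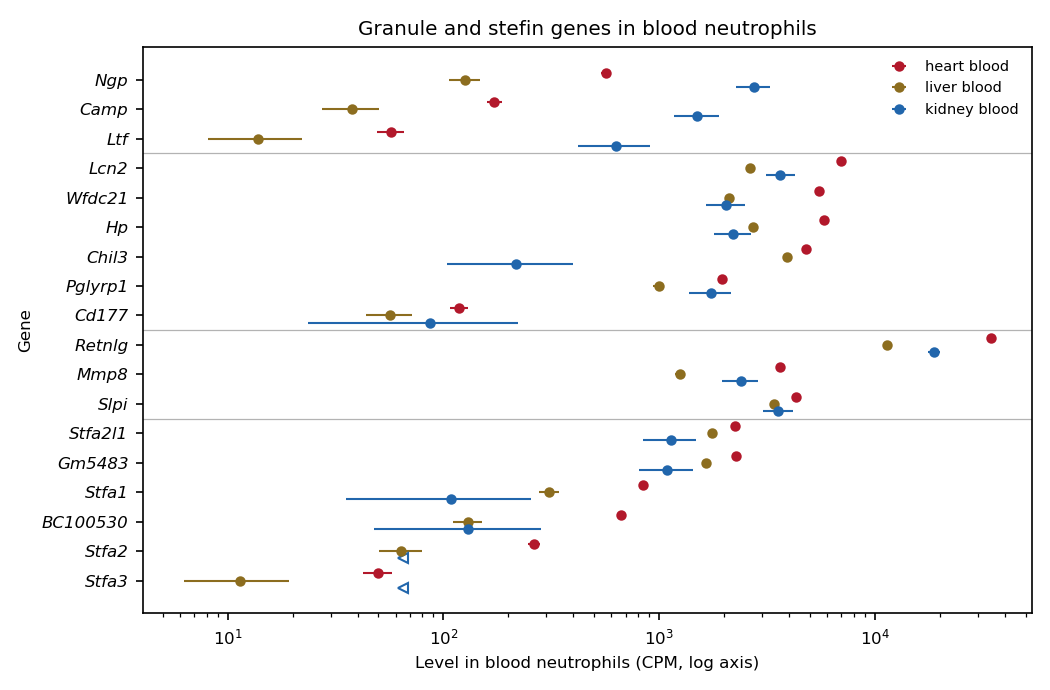
Level of single genes in the blood neutrophils of heart, liver and kidney recipients (CPM, log axis), with exact 95% Poisson intervals. The blocks, from the top, are Camp, Ltf and Ngp, other secondary granule genes, gelatinase granule genes and stefin genes. Open triangles mark the floor of 65.2 CPM set for a count of 0 in kidney blood.

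Camp, Ltf and Ngp, which encode cathelicidin, lactoferrin and neutrophilic granule protein and belong to the myelocyte stage, stood apart from the other granule genes. Ngp was at 564 CPM in heart, 126 CPM in liver and 2739 CPM in kidney neutrophils, Camp at 172, 37.5 and 1500 CPM, and Ltf at 57.1, 13.9 and 630.4 CPM. Their order was kidney, heart and liver in all 3 genes. The 3 genes lie on chromosome 9 of GRCm38 within 1195 kb, and every 100-base window near their 3′ ends was unique to its gene.

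The kidney level came from few cells. Of 224 UMIs of the 3 genes in kidney neutrophils, 92.9% lay in 4 cells, against 17.3% of 2767 UMIs in the top 4 cells of heart and 41.01% of 217 in those of liver recipients. Camp had 69 UMIs in those 4 cells and Ltf 29 UMIs in 3 cells, with none elsewhere. Without the 4 kidney cells with the most UMIs of the list, the secondary granule list fell from 14803 to 9025 CPM in kidney neutrophils, below the liver level of 12593 CPM.

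Cells that carried these RNAs in number were counted as those with at least 5 UMIs of the 3 genes after thinning, a cut set after the values had been seen. There were 23 of 4190 in heart (0.549%, 0.348 to 0.823), 3 of 1595 in liver (0.188%, 0.0388 to 0.549) and 4 of 69 in kidney recipients (5.80%, 1.60 to 14.2), and none among T cells. The highest cells held 49, 28 and 45 UMIs of their 500. At least 1 UMI of the 3 genes was present in 20.6%, 5.45% and 20.3% of neutrophils and in 9.23%, 1.45% and 2.16% of T cells, so that part of the cells with a single UMI is at the level of background.

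Other genes in these cells were then compared with the remaining neutrophils of the same library. In heart recipients Cd177 was 14.6-fold (8.51 to 23.7) and Lcn2 2.25-fold (1.93 to 2.61) higher, S100a8 was 1.38-fold (1.32 to 1.45) higher, and Retnlg was at 1.03-fold (0.930 to 1.13). Il1b, the precursor of interleukin 1 beta, was at 0.297-fold (0.158 to 0.508) and the 22 cytokine genes at 0.446-fold (0.330 to 0.590). The interferon list was at 0.588-fold (0.494 to 0.695). The cell cycle list, at 1.09-fold (0.609 to 1.80), gave no difference that could be detected with 15 UMIs in the 23 cells.

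Lcn2 and the interferon list differed in the same direction in the few cells of the other recipients. In the 4 kidney cells Lcn2 was 4.596-fold (2.91 to 7.05) and Ly6g 9.03-fold (2.38 to 30.0) higher, the interferon list was at 0.415-fold (0.256 to 0.639) and the cytokine genes at 0.267-fold (0.0974 to 0.587), and the cells held 0 UMIs of Cd177, against 3 in the other kidney neutrophils. In the 3 liver cells Lcn2 was 5.33-fold (3.29 to 8.16) and Retnlg 2.17-fold (1.54 to 2.98) higher, and the interferon list at 0.599-fold (0.349 to 0.959). In the same cells the monocyte list was at 1.18-fold (1.02 to 1.37) in heart, 1.24-fold (0.879 to 1.71) in liver and 2.69-fold (1.98 to 3.60) in kidney recipients.

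**Figure D3:**
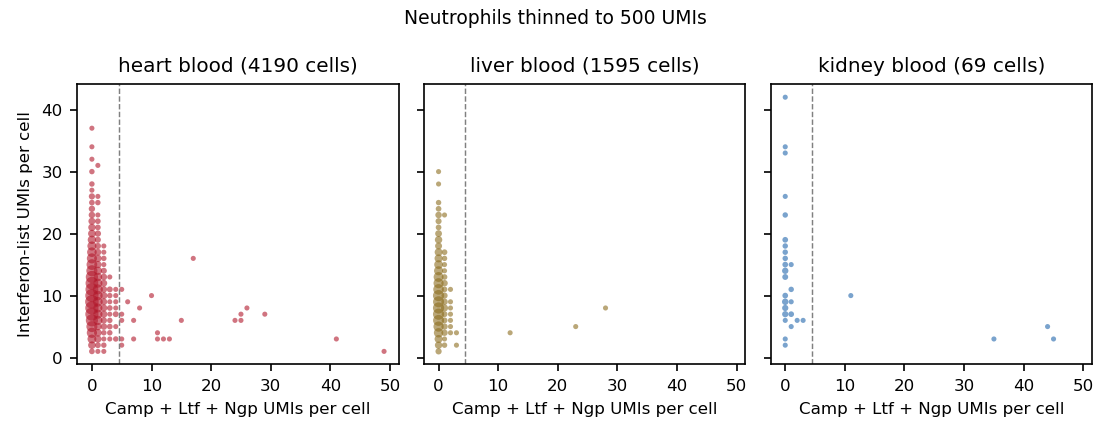
UMIs of the interferon list against UMIs of Camp, Ltf and Ngp in single blood neutrophils thinned to 500 UMIs, 1 panel per recipient type, with larger points where cells coincide. The dashed line marks the cut of 5 UMIs, with 23 heart, 3 liver and 4 kidney cells beyond it.

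Interferon-stimulated genes were expressed throughout the neutrophils of all recipients, and the 3 recipient types were close. The list of 45 genes summed to 20281 CPM (20132 to 20431) in heart, 18787 CPM (18545 to 19031.5) in liver and 22825 CPM (21465 to 24248) in kidney neutrophils. The log2 ratio was -0.11 (-0.13 to -0.09) for liver over heart, -0.28 (-0.37 to -0.19) for liver over kidney and -0.17 (-0.26 to -0.08) for heart over kidney. Of the 35 tested members, 4 were higher by 2-fold or more and none lower in liver against heart neutrophils, a share near the 8.76% higher over all genes, and their median log2 ratio was -0.09. T cells of the same libraries held 9504, 7559 and 6406 CPM, part of which is their own expression.

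Per cell, at least 3 UMIs of the list were found after thinning in 99.2% (98.9 to 99.4) of heart, 98.3% (97.6 to 98.9) of liver and 98.6% (92.2 to 99.96) of kidney neutrophils. T cells reached this cut in 81.5%, 73.9% and 64.2%, so the cut does not separate cells by state. At least 10 UMIs were found in 52.5%, 44.7% and 52.2% of neutrophils, against 6.15%, 5.80% and 5.17% of T cells. Kidney neutrophils were the most spread, with a highest cell of 42 UMIs and a variance 4.33 times the mean, against 1.64 and 1.78 times in heart and liver recipients.

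Promoters of 3 members are shown because they hold 1 to 3 matches to the motif of this gene class. Isg15 encodes a ubiquitin-like modifier, Ifit3 a protein that binds foreign RNA complexes and Rsad2 viperin, an antiviral radical-SAM enzyme. The sequences are from RefSeq (GRCm38.p6), from 250 bases before to 50 bases after the start of the gene: Isg15 at chr4:156200769-156201068, minus strand, Ifit3 at chr19:34583279-34583578, plus strand, and Rsad2 at chr12:26456403-26456702, minus strand. Capitals mark matches to GAAANNGAAA, the core of the interferon-stimulated response element, on either strand. In Isg15 3 overlapping matches begin 78, 72 and 66 bases before the start, and Ifit3 holds 2 and Rsad2 1.
Isg15: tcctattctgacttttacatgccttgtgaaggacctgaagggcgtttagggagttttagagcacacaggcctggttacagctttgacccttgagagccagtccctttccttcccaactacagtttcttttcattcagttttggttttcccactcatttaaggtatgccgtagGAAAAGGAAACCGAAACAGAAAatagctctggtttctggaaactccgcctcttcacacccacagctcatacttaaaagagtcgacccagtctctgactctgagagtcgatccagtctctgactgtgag
Ifit3: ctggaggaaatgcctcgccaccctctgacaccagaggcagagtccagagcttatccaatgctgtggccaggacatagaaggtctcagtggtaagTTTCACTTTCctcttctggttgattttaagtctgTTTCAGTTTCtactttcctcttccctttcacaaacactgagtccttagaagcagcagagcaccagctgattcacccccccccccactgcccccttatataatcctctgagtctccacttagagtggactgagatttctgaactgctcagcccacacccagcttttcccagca
Rsad2: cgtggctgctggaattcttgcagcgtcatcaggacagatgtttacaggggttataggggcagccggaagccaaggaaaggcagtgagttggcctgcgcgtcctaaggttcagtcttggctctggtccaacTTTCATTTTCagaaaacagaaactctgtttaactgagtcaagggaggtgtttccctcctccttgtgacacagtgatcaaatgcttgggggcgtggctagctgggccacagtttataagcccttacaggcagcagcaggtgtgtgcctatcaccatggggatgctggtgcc

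The motif was found in 17 of the 32 interferon-list promoters in the table (53.1%), in 11 of 17 of the gamma interferon list (64.7%) and in 943 of all 27025 promoters of this length (3.49%), and in none of the 7 secondary granule and 4 stefin promoters. A match is a description of the letters and not of a bound site.

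These 3 genes differed in their course. Isg15 was at 974 CPM in heart, 858 CPM in liver and 1565 CPM in kidney neutrophils, and Ifit3 at 936, 577 and 1109 CPM. Rsad2 was at 165 CPM in heart, 229 CPM in liver and 1130.4 CPM in kidney neutrophils, where its 52 UMIs lay in 28 of the 69 cells and the level was 714.5 CPM without the 4 highest. Kidney neutrophils were highest for all 3, by a log2 ratio of heart over kidney of -2.77 (-3.19 to -2.34) for Rsad2 and -0.68 (-1.02 to -0.33) for Isg15, while the interval for Ifit3 (-0.24, -0.64 to 0.18) included 0.

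The 4 members higher in liver than in heart neutrophils were Ms4a4c (153 against 463 CPM), Parp14 (59.1 against 141 CPM), Trim30a (98.7 against 224 CPM) and Ifi209 (77.7 against 157 CPM). Ms4a4c is a membrane protein of myeloid cells, Parp14 an ADP-ribosyltransferase, and Trim30a and Ifi209 are interferon-induced regulators of innate sensing. The members of highest level, Ly6e, at 4375, 3562 and 3043 CPM, and Ifi27l2a, at 3415, 2622 and 4978 CPM, did not pass 2-fold in any comparison. Irf7, the transcription factor that amplifies the interferon response, was at 736, 466 and 587 CPM.

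The list of genes that respond mainly to interferon gamma had its lowest sum in heart recipients, while its members were split. The 23 genes summed to 6029 CPM in heart, 7902 CPM in liver and 8108 CPM in kidney neutrophils, a log2 ratio of 0.39 (0.36 to 0.43) for liver over heart and -0.43 (-0.58 to -0.28) for heart over kidney. Of 17 tested members 1 was higher and 2 lower by 2-fold for liver over heart, counts too small to set against the 8.76% and 3.08% of all genes. With the counting interval 4 were higher and 3 lower for heart over kidney, against 6.2% and 12.4% of all genes. Gbp2, a guanylate-binding GTPase, was at 1624, 2826 and 2391 CPM, and Gbp7 at 180, 310 and 696 CPM. Cxcl10, the chemokine ligand of CXCR3 on T cells, went the other way, at 205 CPM in heart, 38.3 CPM in liver and 0 UMIs in kidney neutrophils. Against the floor of 65.2 CPM, heart was 3.15-fold higher than kidney, and the log2 interval of that ratio began at 1.35. Tgtp1, an immunity-related GTPase, was at 299, 88.1 and 130.4 CPM, with heart the highest as for Cxcl10.

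**Figure D4:**
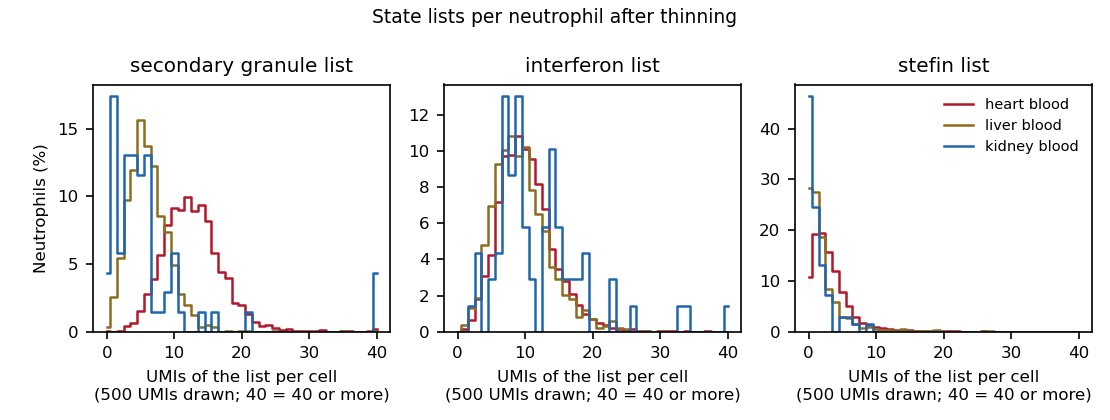
Share of neutrophils (%) by UMIs of the secondary granule, interferon and stefin lists per cell after thinning to 500 UMIs, for heart, liver and kidney recipients. The granule curve of heart recipients, with a median of 12 UMIs, lies to the right of the others, and the interferon curves of all 3 overlap.

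Stefin RNA was highest in heart and lowest in kidney recipients. The 8 stefin A genes of the list summed to 6394 CPM (6310.0 to 6478) in heart, 3953 CPM (3843 to 4066) in liver and 2500 CPM (2064 to 3001) in kidney neutrophils, against 1324, 712 and 128 CPM in T cells. The log2 ratio was -0.69 (-0.74 to -0.65) for liver over heart and 1.35 (1.09 to 1.63) for heart over kidney. Of the 5 tested members, 3 were at least 2-fold lower in liver than in heart neutrophils, none higher, against 3.08% lower and 8.76% higher of all genes. The lower level in liver was not kept under every choice of cells: it was -0.41 in neutrophils with 0 UMIs of Ccr2, Ms4a6c, F13a1, Fn1 and Cd74 (1707 heart and 234 liver cells) and 0.14 in a stricter set that left 26 liver cells, both chosen after the data were seen.

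The genes lie side by side on chromosome 16 of GRCm38, over 299 kb from 36156811 to 36455392, in the order Stfa2l1, Gm5483, Gm5416, Stfa1, BC117090, BC100530, Stfa2 and Stfa3. Reads can be shared between some copies: 92.8% of the 100-base windows near the 3′ end of Stfa1, 86.5% of those of BC117090 and 83.0% of those of BC100530 were unique, and those of the other 5 genes all were. Levels of Stfa1, BC117090 and BC100530 are therefore uncertain in their split, since reads with several alignments were removed.

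Promoters of the 4 members found in the RefSeq table are shown to compare the copies. They lie at chr16:36276898-36277197, plus strand, for Stfa1, chr16:36408314-36408613, minus strand, for Stfa2, chr16:36156561-36156860, plus strand, for Stfa2l1 and chr16:36455343-36455642, minus strand, for Stfa3 of GRCm38.p6. Capitals mark the longest run that all 4 share, 17 bases that begin 1 to 5 bases before the annotated start.
Stfa1: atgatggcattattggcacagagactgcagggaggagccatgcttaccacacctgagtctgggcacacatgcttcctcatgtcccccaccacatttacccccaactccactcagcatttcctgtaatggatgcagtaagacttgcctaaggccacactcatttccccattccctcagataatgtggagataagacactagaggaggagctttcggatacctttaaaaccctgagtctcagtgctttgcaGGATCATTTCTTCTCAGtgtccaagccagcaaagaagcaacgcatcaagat
Stfa2: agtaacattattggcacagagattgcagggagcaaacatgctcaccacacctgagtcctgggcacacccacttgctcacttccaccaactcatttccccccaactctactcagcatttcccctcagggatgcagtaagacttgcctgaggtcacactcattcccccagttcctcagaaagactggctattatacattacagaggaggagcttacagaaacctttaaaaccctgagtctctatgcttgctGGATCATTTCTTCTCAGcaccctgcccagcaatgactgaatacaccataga
Stfa2l1: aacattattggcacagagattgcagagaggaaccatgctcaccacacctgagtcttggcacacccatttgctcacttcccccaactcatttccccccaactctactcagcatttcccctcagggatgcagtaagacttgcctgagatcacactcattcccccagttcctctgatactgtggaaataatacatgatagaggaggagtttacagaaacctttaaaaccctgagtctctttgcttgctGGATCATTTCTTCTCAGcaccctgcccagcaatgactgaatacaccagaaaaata
Stfa3: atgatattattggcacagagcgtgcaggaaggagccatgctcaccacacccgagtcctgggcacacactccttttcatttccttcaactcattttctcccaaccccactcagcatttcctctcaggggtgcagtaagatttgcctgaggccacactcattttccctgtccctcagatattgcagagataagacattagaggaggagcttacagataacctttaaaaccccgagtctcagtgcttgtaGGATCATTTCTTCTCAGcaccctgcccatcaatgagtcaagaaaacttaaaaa

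Aligned in pairs, the promoters were 78.8% to 90.5% identical, with Stfa2 and Stfa2l1 the closest pair. GAGGAA, the core bound by the myeloid factor PU.1, was found on either strand in all 4 and in 28.3% of all promoters of the table. It was also in 57.1% of the 7 secondary granule and 43.75% of the 32 interferon promoters. As near copies, the 4 stefin promoters are not separate observations.

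Levels of these near copies spread widely. Stfa2l1 was at 2247 CPM in heart, 1753 CPM in liver and 1130.4 CPM in kidney neutrophils, and Gm5483 at 2266, 1655 and 1087 CPM. Both were close between heart and liver, with log2 ratios of -0.36 (-0.43 to -0.29) and -0.45 (-0.52 to -0.38). Stfa1 was at 842, 309 and 109 CPM, BC100530 at 666.5, 129.7 and 130.4 CPM, and Stfa2 at 263, 63.6 and 0 CPM.

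Those 3 genes made up the members that passed 2-fold between liver and heart, with log2 ratios of -1.44 (-1.60 to -1.29), -2.35 (-2.60 to -2.13) and -2.03 (-2.40 to -1.71). Stfa2 and Stfa2l1, the pair with the most similar promoters, thus differed in the ratio of liver to heart. Against the floor of 65.2 CPM, Stfa2 was 4.03-fold higher in heart than in kidney neutrophils, and the log2 interval of that ratio began at 1.71. Stfa3 (49.6, 11.4 and 0 CPM), Gm5416 (52.5, 31.0 and 43.5 CPM) and BC117090 (7.46, 0.816 and 0 CPM) had a mean level under 50 CPM and were not tested.

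The variance over cells divided by the mean was larger for the stefin list than for the other 2 lists in heart and liver recipients. In kidney recipients the stefin list had the smallest such value. After thinning, at least 3 UMIs were found in 50.6% (49.0 to 52.1) of heart, 25.4% (23.3 to 27.6) of liver and 15.9% (8.24 to 26.7) of kidney neutrophils, and in 7.69%, 2.899% and 0.431% of T cells. Unthinned, the shares were 71.0%, 38.9% and 24.6%. With 661 heart cells at 3 UMIs and 818 at 2, the cut fell in a continuous range. At least 10 UMIs were found in 168 heart (4.01%) and 39 liver neutrophils (2.45%), the highest cells held 42 and 27 UMIs, and 0 of 69 kidney neutrophils reached 10. The variance was 3.07, 3.81 and 2.74 times the mean in heart, liver and kidney recipients.

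Stefin-rich neutrophils were then set against stefin-free ones of the same library, at 2119 against 448 cells in heart, 405 against 453 in liver and 11 against 32 in kidney recipients, with 1176 genes tested outside the list and the rule. Taking only genes that passed 2-fold in all 3 libraries at once, none (0%) was higher in the stefin-rich cells and 2 (0.17%) were lower. These were Camp, with log2 ratios of -1.34, -1.63 and -6.48 in heart, liver and kidney recipients, and Ltf, with -1.11, -1.36 and -5.39. Ngp was at -0.96, -0.47 and -3.16. The liver ratios rest on 3 against 20 UMIs of Camp and 1 against 10 of Ltf, and no stefin-rich kidney cell held a UMI of either. Ltf was at 57.1 CPM in heart and 13.9 CPM in liver neutrophils. It met the minimum of 100 CPM only through the 630 CPM of kidney neutrophils, held by 3 cells. Camp was at 172 CPM in heart and 37.5 CPM in liver neutrophils. Most of its mean came from the 1500 CPM of kidney neutrophils, held by 4 cells. Both calls are therefore a description.

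The same was done for the interferon and the granule lists, with cells at or beyond the upper 20% mark against those at or below the lower 20% mark, a comparison added after the data were seen because almost no cell held 0 UMIs. Ties made the groups larger, at 1032 against 1125 heart, 321 against 393 liver and 15 against 18 kidney cells for interferon, and 944 against 958, 452 against 480 and 14 against 15 for the granule list. For interferon, none of 1154 genes (0%) was 2-fold higher in all 3 libraries and 3 (0.26%) were lower: Camp at -1.27, -1.71 and -7.90, Ltf at -1.04, -1.08 and -6.97 and Ngp at -1.27, -1.78 and -8.61. In kidney blood these ratios rest on 42 UMIs of Camp, 22 of Ltf and 69 of Ngp in the lower group and 0 in the upper, and all UMIs of Camp and Ltf lay in 4 cells. In liver blood 3 cells held 18 UMIs of Camp and 11 of Ltf, against 19 and 4 in the other 1592. Those 3 cells had 4, 5 and 8 UMIs of the interferon list, and the lower group had at most 6. Ltf entered this comparison only through its kidney level, and most of the mean level of Camp came from kidney blood too. For the secondary granule list, 0% of 1173 genes were higher and 0% lower in all 3 libraries.

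Beyond the 3 states, liver and heart neutrophils differed in 185 genes at least 2-fold higher and 65 lower in liver. With the ratios divided by the median ratio of all genes, the split was 140 higher and 84 lower. Without cells holding Ccr2, Ms4a6c, F13a1, Fn1 or Cd74 UMIs it was 183 higher and 125 lower. The 4 globin genes led the higher side, with Hbb-bs at 104 CPM in heart and 7407 CPM in liver neutrophils, and T cells of the same libraries held 110 and 4594 CPM of the erythroid list. Next came Tppp3, a tubulin-binding protein (15.5 against 127 CPM), Fos (80.3 against 446 CPM), Ccr2, the chemokine receptor of inflammatory monocytes (58.8 against 295 CPM), Ifi30, a lysosomal thiol reductase (109 against 519 CPM), Naaa, a lysosomal amidase (54.2 against 227 CPM), and Cxcr4, the receptor that holds neutrophils in the marrow (21.5 against 91.4 CPM).

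Genes of class II antigen presentation and of monocytes were also higher in liver neutrophils. The class II genes H2-Ab1, H2-Aa and H2-Eb1 were at 438, 306 and 261 CPM in heart and 1236, 899 and 717 CPM in liver neutrophils, and Cd74, their invariant chain, at 1157 against 2702 CPM. Of the 7 tested monocyte genes, 3 were at least 2-fold higher (8.76% of all genes), among them Ms4a6c, and Lyz2, lysozyme, was at 9865 against 16427 CPM. The part of monocytes and B cells in these values was not tested. Cathepsin S (Ctss), a class II processing protease, was at 1072 against 1778 CPM, and cathepsin C (Ctsc), which activates the granule serine proteases, at 253 against 646 CPM. None of the 12 tested MHC class I genes passed 2-fold, and the list summed to 26245 CPM in heart and 26045 CPM in liver neutrophils. Ribosomal protein genes summed to 23962 CPM in heart and 39576 CPM in liver neutrophils, with 11 of 45 at least 2-fold higher, while T cells held 68274 and 91513 CPM of them.

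Cxcl2, Ccrl2 and Cd14 were lower in liver than in heart neutrophils, while of 7 tested cytokine genes 1 (Il15) was higher and 1 (Cxcl2) lower, a count too small to set against the 8.76% and 3.08% of all genes. Cxcl2, a ligand of CXCR2, was at 106 CPM in heart, 9.79 CPM (12 UMIs) in liver and 1152 CPM in kidney neutrophils. Ccrl2, an atypical chemokine receptor, was at 180, 26.9 and 391 CPM. Cd14, the co-receptor for lipopolysaccharide, was at 482, 100.4 and 217 CPM. For each of them liver neutrophils were the lowest, and for Cxcl2 and Ccrl2 kidney neutrophils the highest.

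Of the 25 tested pattern receptors, 5 were at least 2-fold lower in liver than in heart neutrophils and none higher, namely Cd14, Clec4e, Clec5a, Tlr2 and Mrgpra2a, against 3.08% lower and 8.76% higher over all genes. Clec4e, a receptor for mycobacterial and cell-death ligands, was at 1322, 516 and 522 CPM. Among the 8 tested chemotactic receptors 3 were lower and 1 higher, with Fpr1, the formyl peptide receptor, at 908, 312 and 261 CPM, Fpr2 at 400.1, 189 and 239 CPM, and Cxcr4 on the higher side. Marcksl1, an actin-binding protein, was at 1027, 206 and 130.4 CPM, and Chil1, a chitinase-like lectin, at 1337, 311 and 348 CPM.

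The immediate early list, of genes that respond within minutes to a stimulus and others such as the chaperone Hsp90aa1, split in opposite directions. Of 13 tested members 6 were higher and 2 lower by 2-fold or more in liver against heart neutrophils (8.76% and 3.08% of all genes), and the summed list was nearly level (log2 ratio -0.07, -0.11 to -0.03) while the median of the members was 0.75. Fos, Klf2 (159 against 435 CPM), Klf6, Jund, Ier5 and Hsp90aa1 were higher. Nfkbia, the inhibitor that NF-kappaB induces, was lower at 1488 against 449 CPM, as was Ier3 at 426 against 126 CPM. Of 12 tested survival genes, Mcl1, which keeps neutrophils alive, was higher (253 against 569 CPM) and Sod2, the mitochondrial superoxide dismutase, lower (307 against 85.7 CPM), while Fth1, the ferritin heavy chain, was at 13199 against 6683 CPM. Of 10 tested adhesion genes Itgal, Itga4 and Cd44 were higher and Icam1 lower, while the summed list was level (log2 ratio 0.03, -0.01 to 0.08).

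**Figure D5:**
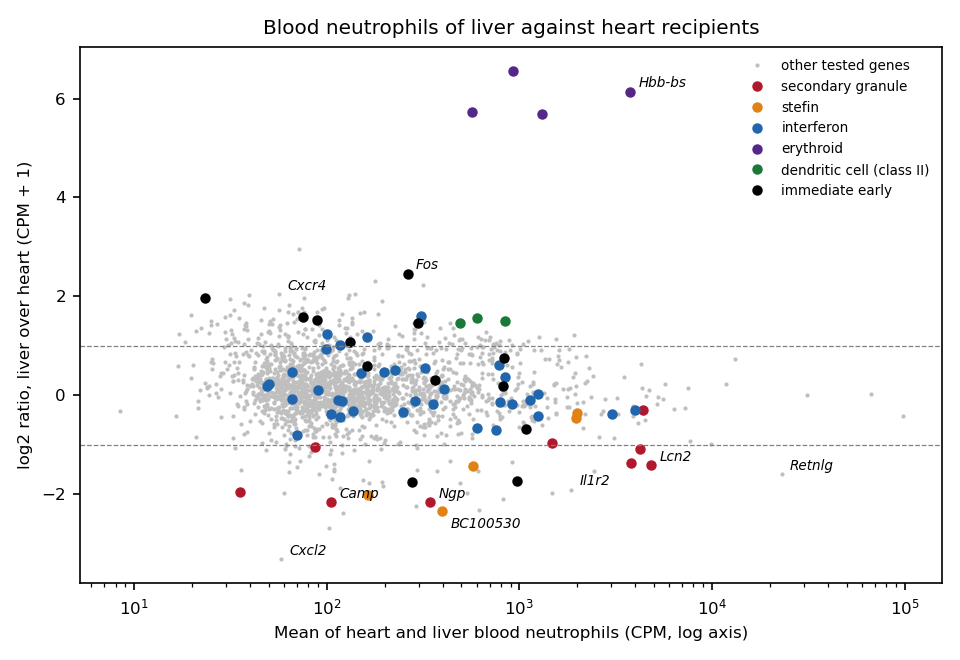
Log2 ratio of liver over heart blood neutrophils (CPM + 1) against the mean level of both (CPM, log axis) for the 2112 genes tested, with members of 6 lists in colour and dashed lines at 2-fold. The 4 globin genes lie highest, and 7 of 9 secondary granule genes lie at or below the lower line, as do 3 of 5 stefin genes.

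Kidney neutrophils could be compared only coarsely, because few of their UMIs lie behind each gene. For liver over kidney 15% of the 2112 genes were at least 2-fold higher and 12.1% lower, and 5.92% and 6.82% with a counting interval that excluded 1. For heart over kidney these were 14.8% and 18.5%, and 6.2% and 12.4% with the interval. The median log2 ratio over all genes was 0.04 for liver over kidney and -0.11 for heart over kidney. With the interval, 4 of 5 stefin genes were higher in heart than in kidney neutrophils, 3 of 9 secondary granule genes were higher and 3 lower, and of 35 interferon genes none were higher and 8 lower. The granule genes on the higher side were Chil3, Hp and Wfdc21, and those on the lower side Camp, Ltf and Ngp. Of these, Ltf met the minimum only through its kidney level.

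Saa3, an acute-phase serum amyloid A, set kidney neutrophils apart from both others. It was at 1119 CPM in heart and 978 CPM in liver neutrophils and had 0 UMIs in kidney neutrophils. Against the floor of 65.2 CPM, heart was 17.2-fold and liver 15.0-fold higher, and the log2 intervals of these ratios began at 3.80 and 3.61. T cells held 252, 189 and 3.20 CPM of Saa3. The lysosomal protease genes were low in kidney neutrophils too, with Ctsb at 507, 520 and 65.2 CPM and Ctsc at 253, 646 and 21.7 CPM in heart, liver and kidney recipients, and 5 of 10 tested cathepsin genes were higher in heart than in kidney neutrophils with the interval, against 6.2% of all genes. The cathepsin list summed to 5397, 6981 and 3065 CPM in neutrophils and to 3105, 3126 and 1682 CPM in T cells. It was thus lowest in the kidney library in both kinds of cells.

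The immediate early list had its highest sum in kidney neutrophils. It came to 5634 CPM in heart, 5376 CPM in liver and 10065 CPM in kidney neutrophils, with 1 gene higher and 5 lower of 13 for heart over kidney with the interval, against 6.2% and 12.4% of all genes. Dusp1, a phosphatase that restrains MAP kinases, was at 621, 1044 and 2478 CPM, and Fos was at 913 CPM in kidney neutrophils, in 33 of 69 cells. Osm, the cytokine oncostatin M, was at 41.01, 33.5 and 435 CPM (230.4 CPM without the 4 kidney cells that held 50% of its UMIs), and G0s2, a lipase inhibitor expressed by neutrophils, at 167, 91.4 and 826 CPM. Of the 53 UMIs of Cxcl2 in kidney neutrophils, 51% lay in 4 cells and 25 cells held at least 1. Of 8 tested cell cycle genes, 5 were lower in heart than in kidney neutrophils with the interval, where 12.4% of all genes were, and the list stood at 1230, 1077 and 1956 CPM, beside the 1565 CPM of T cell genes and 2804 CPM of NK cell genes in kidney neutrophils. T cells held 6383, 5306 and 8642 CPM of the cell cycle list, and their part in that result was not tested. Among the 8 genes, Pclaf was at 27.2, 14.7 and 173.9 CPM, the last from 8 UMIs. It met the minimum of 50 CPM only through kidney neutrophils, so its direction is no separate result.

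The same rule found few neutrophils in the graft libraries. There were 153 of 10000 cells in the solid organ library of the liver, 62 of 9668 in the library labelled heart lymphocytes, 78 of 9337 in that labelled liver lymphocytes, 1 of 2004 in kidney lymphocytes and 0 of 795 in the solid organ library of the kidney, which allows a share of up to 0.463%. Over all passing cells, 6 hepatocyte genes (Alb and Ttr among them) summed to 440 CPM under the heart lymphocyte label and 2.18 CPM under the liver lymphocyte label, while 6 cardiomyocyte genes (Myh6 and Actc1 among them) summed to 3.61 and 97.8 CPM. These values go against both labels, so the 2 lymphocyte libraries are named by their labels and no organ is read from them. The same genes could not check the labels of heart and liver blood, because their levels were close there. Hepatocyte genes summed to 1.21 CPM in heart and 1.11 CPM in liver blood, and cardiomyocyte genes to 11.496 and 11.278 CPM. The recipient types compared above therefore rest on the blood labels alone. The graft tissue was digested with collagenase, and its lymphocytes were isolated on a Ficoll density gradient, a step that depletes granulocytes, so that handling and place cannot be told apart in what follows.

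Chemokine RNA was higher in the graft cells than in blood neutrophils. Cxcl2 was at 8275 CPM (7880.0 to 8684) in the liver solid organ library, 6418 CPM under the heart lymphocyte label and 12347 CPM under the liver lymphocyte label, against 9.79 CPM in liver blood, 106 CPM in heart blood and 1152 CPM in kidney blood. Ccl3, a chemokine that attracts monocytes and other leukocytes, was at 1452, 1439 and 1613 CPM, against 7.34 CPM in liver and 21.2 CPM in heart blood. The immediate early list stood at 17514, 18306 and 21498 CPM, above the 10065 CPM of kidney blood.

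Interferon and stefin genes were lower in the graft cells than in blood neutrophils of any recipient, apart from stefin RNA in kidney blood. The interferon list was at 14420, 12911 and 13650 CPM and the stefin list at 2994, 1931 and 2125 CPM in the same 3 libraries. The markers outside the rule were also lower, at 123912, 70840.4 and 57530 CPM, and the cells labelled liver lymphocytes held 28850 CPM of the B cell list and 55793 CPM of the erythroid list. The part of other cells in the levels of these graft cells was not tested.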

How the data were processed

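Single cells of blood and of graft tissue from mice were read by Microwell-seq in 8 libraries, 1 for each group. The deposited values are raw UMI counts per gene and cell, 10000 barcodes per library, which the authors made with the Drop-seq core tools and STAR on GRCm38 with GENCODE gene models, removing reads with several alignments and merging UMIs 1 edit apart. Total UMIs per library ran from 3418722 to 19171264, and those of the blood libraries were 7522904 (heart), 6731112 (liver) and 3450766 (kidney). The precision is set by the UMIs of the neutrophils, which were fewest in kidney blood.

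Cells entered with 500 UMIs or more, of which up to 10% could be mitochondrial, and the UMI rule given above was applied in Python 3.11.15 with numpy 2.4.6, scipy 1.17.1 and pandas 2.3.3 (figures with matplotlib 3.10.9). No doublet caller was run. UMIs were summed over the neutrophils of a library. With 1 library per group, no test between groups was made. Ratios are log2 of CPM + 1, genes with a mean of at least 50 CPM over the 3 libraries were compared, and a gene was called at a 2-fold ratio. Shares of cells were taken after thinning each cell to 500 UMIs without replacement (seed 0). Within a library, groups of cells were compared with 20 CPM added for genes of at least 100 CPM. Genes were named by rule as members of the lists, the leading 10 genes in each direction of a comparison and the genes called between groups of cells. The members, the 30 lists and the rules were chosen with earlier results of these data known, as were the organ genes used to check the graft labels. The scripts were tested on simulated data. Some genes are not reported here.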

Additional observations from a re-analysis of the deposited data

How the results depend on the processing

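No paired analysis was possible because each group is 1 library and the labels carry no replicate numbers. For the same reason there was no replicate to leave out. Of the comparisons' main values under their alternatives, 88 moved by less than their counting interval, or counts by less than 1.5 times, 55 moved and 1 reversed. The cause was not tested.

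The neutrophil share of blood cells was 51.8%, 19.8% and 1.05% in heart, liver and kidney recipients at a minimum of 1000 UMIs, 65.1%, 38.0% and 10.7% with at least 2 UMIs of the rule genes, 41.4%, 13.4% and 3.50% with at least 4, 40.4%, 15.7% and 4.37% with the rule applied after thinning, and 29.1%, 9.50% and 3.94% with stricter exclusion of other cells. The log2 ratio of the secondary granule list for liver over heart was -0.86 without cells holding monocyte, Cd74 or haemoglobin UMIs and -0.93 without Lcn2. For liver over kidney it was -0.018 under stricter exclusion, -0.45 with Il1r2 left out of the rule and -0.41 without cells holding Ccr2, Ms4a6c, F13a1, Fn1 or Cd74 UMIs, and for heart over kidney 1.03, 0.59 and 0.62 under the same 3 settings.

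For the interferon list, the log2 ratio of liver over heart was -0.18 at 1000 UMIs, -0.077 with at least 4 UMIs of the rule genes, -0.079 under stricter exclusion, -0.0036 without cells holding monocyte, Cd74 or haemoglobin UMIs, -0.085 without cells holding Ccr2, Ms4a6c, F13a1, Fn1 or Cd74 UMIs and -0.061 without Ifi27l2a. For liver over kidney it was -0.37 with another total and -0.14 without Ifi27l2a, and for heart over kidney -0.27 under stricter exclusion and -0.26 with another total. For the stefin list, liver over heart was -0.87 at 1000 UMIs, -0.60 with at least 4 UMIs of the rule genes, -0.51 under stricter exclusion, -0.41 without cells holding Ccr2, Ms4a6c, F13a1, Fn1 or Cd74 UMIs and -0.91 without Stfa2l1. It reversed to 0.14 without cells holding monocyte, Cd74 or haemoglobin UMIs, which left 671 heart, 26 liver and 3 kidney cells. Liver over kidney was 0.97 without cells holding Ccr2, Ms4a6c, F13a1, Fn1 or Cd74 UMIs. Settings that removed single kinds of cells were added after the data were seen.

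Genes at least 2-fold higher and lower numbered 459 and 104 for liver over heart, 719 and 747 for liver over kidney and 647 and 1011 for heart over kidney with a minimum mean of 20 CPM. With 100 CPM they were 98 and 40, 150 and 96, and 162 and 167. With the counting interval they were 125 and 144 for liver over kidney and 131 on the higher side for heart over kidney. Without cells holding Ccr2, Ms4a6c, F13a1, Fn1 or Cd74 UMIs, 125 were lower for liver over heart. Alternatives that left under 20 kidney cells gave no kidney comparison. Kidney values rest on 69 cells with 46003 UMIs.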
